A study of Homo sapiens with 4 samples.

Results

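Gene expression after lowering of TTC22 was examined in HCT116, a long-established line of human colon cancer cells, by comparing the library from cells given pooled TTC22 siRNAs with the library from cells given scramble siRNA. These are 2 of the 4 libraries of the series, taken by their labels. The other 2, from cells given 2 µg of a TTC22V1 plasmid or of an empty vector, serve below as levels from another table. They also serve to describe which siRNA library departed, by 2-fold differences between the separately normalized tables. The TTC22 siRNA cells received 3 siRNAs at 100 nM in all, and the scramble cells received the control siRNA at 100 nM. Both pairs were harvested 48 hours after transfection, and poly(A) RNA was sequenced as paired-end libraries. Each group held 1 library, so differences carry no replicate error, none was tested, and all values describe these libraries alone. Effects of a single siRNA cannot be told apart from those of the pool.

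The product of TTC22 contains tetratricopeptide repeats, helical motifs that commonly hold partner proteins together. An siRNA guides an Argonaute protein to matching transcripts, which are then cut, and its seed bases can also repress transcripts that match only in part. Both siRNA groups therefore carry the transfection and a loaded silencing complex, and differ in the sequence of the guide.

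The authors' table lists FPKM, fragments per kilobase of gene scaled to the mapped total of the library, for 47251 genes. The unit is inferred from the values. Their sum was 205734 in the TTC22 siRNA library and 181102 in the scramble library. The number of fragments is unknown. Low values times transcript length piled up at steps of 19.85 and 21.95, which would make the TTC22 siRNA library 1.11 times as deep. Lower steps lay at 9.95 with TTC22 siRNAs and 10.95 with scramble, so the larger step may not be 1 fragment. If the larger step is 1 fragment, a level of 1 FPKM over a transcript of 2000 bases rests on 101 fragments with TTC22 siRNAs and 91.1 with scramble. Both libraries expressed the epithelial genes EPCAM, 101 FPKM with TTC22 siRNAs and 132 FPKM with scramble, and KRT8, 354 FPKM with TTC22 siRNAs and 299.9 FPKM with scramble. The differentiated colon genes VIL1, LGALS4 and CDH17 were under 0.1 FPKM in both. Of 24 markers of other cell types, 21 were under 1 FPKM in each library. Their summed level was 42.4 FPKM with TTC22 siRNAs and 47.4 FPKM with scramble, most of it the lysosomal protein gene CD68.

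TTC22 (ENSG00000006555, hg38 chromosome 1, 54779712 to 54801323, minus strand) stood at 6.54 FPKM in the TTC22 siRNA library and 10.7 FPKM in the scramble library. The TTC22 siRNA library thus held 38.7% less TTC22 transcript, a difference of −0.63 on the log2(FPKM + 1) scale. That size is not rare in these libraries: 459 of the 9692 genes compared, or 4.74%, lay as far down or further. In the separately normalized table of the plasmid experiment TTC22 had 24215 FPKM with the TTC22V1 plasmid and 4.46 FPKM with empty vector.

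A gene was compared if the mean of both libraries was at least 1 FPKM, neither library listed it at exactly 0, and it was not mitochondrially encoded. It was called higher or lower if the log2(FPKM + 1) difference, TTC22 siRNAs minus scramble, was at least 1 in size, which is 2-fold on that scale and understates the change of low genes. Of 9692 such genes 216 (2.23%) were higher with TTC22 siRNAs and 196 (2.02%) were lower, together 412 or 4.25%. The median difference was −0.02, the middle 50% of genes lay between −0.20 and 0.15, and the central 90% between −0.61 and 0.62. Past 4-fold were 50 higher and 41 lower genes, and past 8-fold 17 and 13. The other 37507 genes of the table fell under the level filter, 45 measured nuclear genes were listed at 0 in 1 library, and 7 measured genes were mitochondrially encoded.

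The share past 2-fold was 4.06% of 4898 genes between 1 and 5 FPKM, 4.53% of 3464 genes between 5 and 20 FPKM, 4.54% of 1080 genes between 20 and 100 FPKM, and 2.80% of 250 genes above that. The shares of low genes rest on the pseudocount of 1. By gene structure, 14.5% of 791 genes with under 4 exons passed, against 3.3% of 8857 genes with 4 or more, where 148 (1.67%) were higher and 144 (1.63%) lower. The 20 highest and 20 lowest genes below were therefore taken from genes with at least 4 exons. Genes named for their level or within a list can have fewer, such as NOP10, ANAPC13, NDUFC2 and IFITM1 with 3 each.

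**Figure D1:**
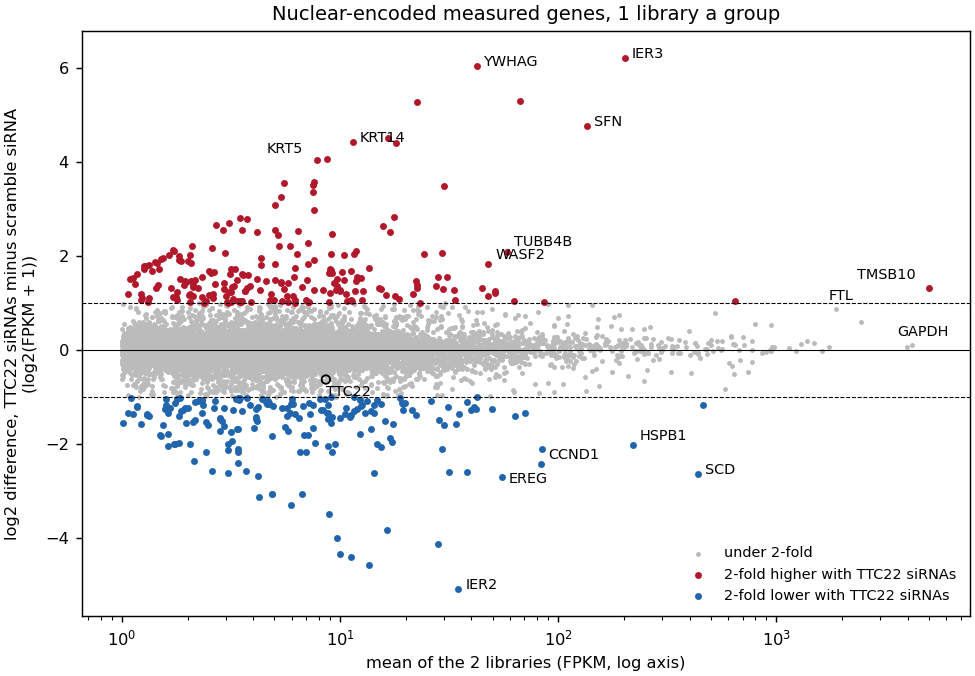
Difference between the libraries (vertical axis, log2(FPKM + 1), TTC22 siRNAs minus scramble siRNA) against the mean level of each of the 9692 compared genes (horizontal axis, FPKM, log scale). Red and blue points are the 216 higher and 196 lower genes, dashed lines mark 2-fold, and the circled point is TTC22 at −0.63.

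Above 100 FPKM only 7 genes passed the rule. TMSB10 (3 exons), which encodes the actin-monomer binder thymosin beta 10, had 7159 FPKM with TTC22 siRNAs and 2880.4 FPKM with scramble, the highest pair mean of any nuclear gene. NDRG1, a gene induced by hypoxia and cell stress, had 874 FPKM with TTC22 siRNAs and 421 FPKM with scramble. SFN (14-3-3 sigma, 1 exon) and IER3 (2 exons) were also higher, and SCD, HSPB1 and the ribosomal protein gene RPL29 were lower. The next most abundant transcripts lay closer together. GAPDH of glycolysis had 4345 FPKM with TTC22 siRNAs and 4022 FPKM with scramble, the elongation factor gene EEF1A1 4036 FPKM with TTC22 siRNAs and 3866 FPKM with scramble, and the membrane-actin linker gene EZR 1608 FPKM with TTC22 siRNAs and 1631 FPKM with scramble. Ferritin light chain, FTL, stood at 2426 FPKM with TTC22 siRNAs and 1317 FPKM with scramble and gamma-actin, ACTG1, at 2954 FPKM with TTC22 siRNAs and 1957 FPKM with scramble, both under 2-fold.

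Among genes with 4 or more exons and a mean of at least 5 FPKM, the largest upward differences were those of basal keratins, which are described with the epithelial genes. Next came POMGNT2, whose enzyme extends the O-mannose sugar of alpha-dystroglycan, at 10.5 FPKM in the TTC22 siRNA library against 0.213 FPKM in the scramble library. Beside the plasmid experiment, given below, POMGNT2 was low in scramble alone. TUBB4B, a beta-tubulin gene, had 94.5 FPKM with TTC22 siRNAs and 21.4 FPKM with scramble. NTSR1, the receptor for the peptide neurotensin, had 47.9 FPKM with TTC22 siRNAs and 10.6 FPKM with scramble. Their log2 differences were 3.25, 2.09 and 2.07. CCNT1 encodes cyclin T1 of the elongation kinase P-TEFb and stood at 10.8 FPKM in the TTC22 siRNA library against 1.86 FPKM in the scramble library. WASF2 encodes the WAVE2 protein that activates branched actin growth, and it had 74.9 FPKM with TTC22 siRNAs and 20.5 FPKM with scramble. F11R encodes the tight junction adhesion molecule JAM-A and had 39.6 FPKM with TTC22 siRNAs and 8.89 FPKM with scramble. Endoplasmic reticulum genes were present too: HSPA13, an Hsp70 relative, at 19.2 FPKM with TTC22 siRNAs and 3.92 FPKM with scramble, and MOGS, the glucosidase that first trims N-linked sugars, at 16.1 FPKM with TTC22 siRNAs and 4.36 FPKM with scramble. NAA50, an N-terminal acetyltransferase, had 17.3 FPKM with TTC22 siRNAs and 3.52 FPKM with scramble, and SERINC5, a membrane protein that restricts HIV infectivity, had 10.1 FPKM with TTC22 siRNAs and 2.33 FPKM with scramble. S100A2, a squamous S100 gene (16.2 FPKM with TTC22 siRNAs and 2.101 FPKM with scramble), stood between POMGNT2 and TUBB4B in size of difference. The others of the 20 highest were CCDC6, UNC119B, MRGBP, USP12 and TMEM167B, with levels from 11.7 to 21.4 FPKM with TTC22 siRNAs and from 1.77 to 5.64 FPKM with scramble.

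At the other end stood FAM47E-STBD1, with 0.0350 FPKM with TTC22 siRNAs and 19.9 FPKM with scramble. It is an uncertain entry, since this readthrough gene shares exons with FAM47E and STBD1. STBD1 itself went the other way, with 19.9 FPKM with TTC22 siRNAs and 3.88 FPKM with scramble. The readthrough entry is therefore not read as a fall of the locus. Whether reads were assigned differently between the entries was not tested. EREG (epiregulin, a ligand of the EGF receptor) had 13.9 FPKM with TTC22 siRNAs and 96.4 FPKM with scramble. SCD encodes the desaturase that makes monounsaturated fatty acids and had 119.9 FPKM with TTC22 siRNAs and 756 FPKM with scramble. Their log2 differences were −2.71 and −2.65. TMED10, whose p24 protein sorts cargo between endoplasmic reticulum and Golgi, had 10.1 FPKM with TTC22 siRNAs and 66.03 FPKM with scramble, and the cyclin D1 gene CCND1 had 25.4 FPKM with TTC22 siRNAs and 142 FPKM with scramble. HSPB1, a small heat shock protein gene, had 85.8 FPKM with TTC22 siRNAs and 352 FPKM with scramble. RAB11A, the GTPase of recycling endosomes, stood at 6.501 FPKM in the TTC22 siRNA library against 27.98 FPKM in the scramble library. Lysosomal proteins gave a pair of entries, CREG1 with 2.68 FPKM with TTC22 siRNAs and 15.6 FPKM with scramble and PLBD2 with 2.48 FPKM with TTC22 siRNAs and 11.2 FPKM with scramble. The nucleolar RNA helicase gene DDX56 had 2.13 FPKM with TTC22 siRNAs and 9.38 FPKM with scramble, and PCYOX1, which breaks down prenylated cysteine, had 2.82 FPKM with TTC22 siRNAs and 14.8 FPKM with scramble. AK3, the adenylate kinase of the mitochondrial matrix, had 3.199 FPKM with TTC22 siRNAs and 15.8 FPKM with scramble, and the adiponectin receptor gene ADIPOR2 had 6.04 FPKM with TTC22 siRNAs and 21.6 FPKM with scramble. Also among the 20 lowest were KIAA0040, ADNP2, TMEM230, ARL6IP5, ZBTB4, C6orf106 and SPATA2L, between 1.74 and 6.67 FPKM with TTC22 siRNAs and between 11.4 and 27.2 FPKM with scramble.

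**Figure D2:**
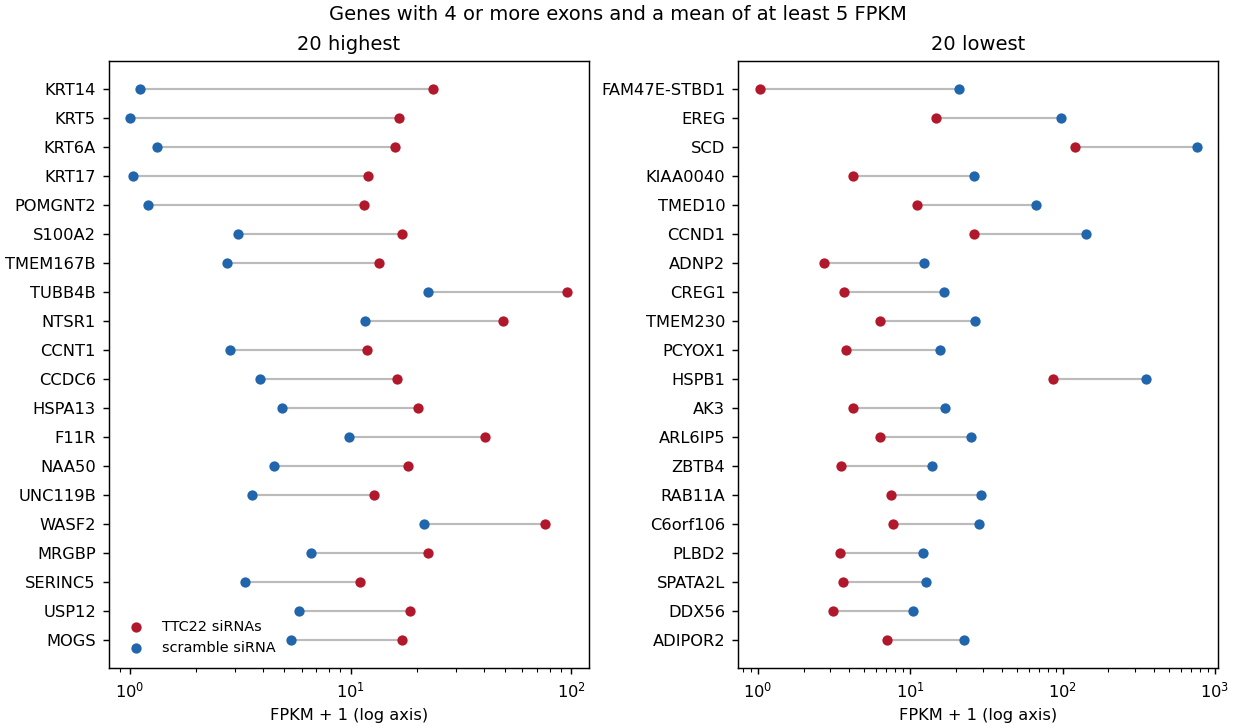
Levels of the 20 highest (left) and 20 lowest (right) genes with 4 or more exons and a mean of at least 5 FPKM, as FPKM + 1 on a log axis. Red points are the TTC22 siRNA library and blue points the scramble library; KRT14 has the widest span on the left, with 22.7 FPKM with TTC22 siRNAs and 0.111 FPKM with scramble.

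The gene lists that follow were written with earlier results of these data known, so their counts are descriptions. A gene under 1 FPKM in 1 library passed the level filter only through the other library, so its direction was fixed beforehand. Among others this holds for KRT7, COL17A1, IFIT5, ZFP36L2, DPM3, POMGNT2 and YWHAG, under 1 FPKM in scramble. It also holds for BTG2, EIF4EBP2 and TRMT10C, under 1 FPKM with TTC22 siRNAs. The calls of such genes support nothing. Over all compared genes 2.23% were higher, 2.02% were lower and 45.7% lay above 0, the shares against which a list's counts can be read; with lists this short, 1 call already exceeds them in many. Genes of mitosis were tilted upward with TTC22 siRNAs. Of 16 compared mitotic kinases and cyclins 2 were higher and 0 lower, 15 lay above 0 and the median was 0.46. CDK1, the master kinase of mitotic entry, had 8.74 FPKM with TTC22 siRNAs and 3.38 FPKM with scramble, and TTK, a spindle checkpoint kinase, 4.51 FPKM with TTC22 siRNAs and 1.49 FPKM with scramble. Short of the rule were the centrosome kinase gene AURKA (8.21 FPKM with TTC22 siRNAs and 3.89 FPKM with scramble), the checkpoint gene BUB1B (6.54 FPKM with TTC22 siRNAs and 3.47 FPKM with scramble) and cyclin B1, CCNB1 (15.8 FPKM with TTC22 siRNAs and 10.9 FPKM with scramble). Of 20 spindle motor and microtubule genes none passed the rule, 18 lay above 0 and the median was 0.41. HMMR, a spindle assembly factor, had 4.02 FPKM with TTC22 siRNAs and 1.99 FPKM with scramble, and TPX2, an activator of Aurora A, 15.7 FPKM with TTC22 siRNAs and 9.898 FPKM with scramble.

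The chromosome-side groups were tilted less. Of 18 condensin, cohesin and topoisomerase genes 1 was higher, TOP2A, which untangles sister chromatids (7.097 FPKM with TTC22 siRNAs and 2.85 FPKM with scramble), with 14 above 0 and a median of 0.32. Of 18 kinetochore and centromere genes none passed, 13 lay above 0 and the median was 0.32, with NUF2 of the NDC80 complex at 3.11 FPKM with TTC22 siRNAs and 1.58 FPKM with scramble. The anaphase-promoting complex was not tilted that way: 6 of 18 lay above 0, with a median of −0.15 and a mean of 0.03. Its member ANAPC13 was higher (6.48 FPKM with TTC22 siRNAs and 2.104 FPKM with scramble), while its activator CDC20 had 33.3 FPKM with TTC22 siRNAs and 19.7 FPKM with scramble. Of 35 genes of replication and S phase none passed and 12 lay above 0 (median −0.07), among them RRM2 of ribonucleotide reductase at 5.06 FPKM with TTC22 siRNAs and 7.92 FPKM with scramble.

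Mitotic genes carry CCAAT boxes, bound by NF-Y, and the letters TTTGAA, one form of the cell cycle homology region, as textbook features of their promoters. The RefSeq promoters (GRCh38.p14, 250 bases before to 50 after the start) of CDK1 and TOP2A are shown as examples of mitotic genes that passed the rule. TTK and ANAPC13 also passed and are not shown. Motif shares were not computed for the condensin, cohesin and topoisomerase list, which holds TOP2A. The SCD promoter is shown because SCD had the largest downward difference among genes above 100 FPKM. Capitals mark CCAAT and TTTGAA on either strand, so ATTGG and TTCAAA count too.
CDK1 (chr10:60778228-60778527, plus strand): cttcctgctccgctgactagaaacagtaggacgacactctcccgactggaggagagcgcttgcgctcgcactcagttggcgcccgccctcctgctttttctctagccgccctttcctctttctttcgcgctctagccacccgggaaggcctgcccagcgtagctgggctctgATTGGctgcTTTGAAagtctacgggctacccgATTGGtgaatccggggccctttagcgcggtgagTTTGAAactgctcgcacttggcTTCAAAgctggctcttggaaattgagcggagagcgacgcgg
TOP2A (chr17:40417847-40418146, minus strand): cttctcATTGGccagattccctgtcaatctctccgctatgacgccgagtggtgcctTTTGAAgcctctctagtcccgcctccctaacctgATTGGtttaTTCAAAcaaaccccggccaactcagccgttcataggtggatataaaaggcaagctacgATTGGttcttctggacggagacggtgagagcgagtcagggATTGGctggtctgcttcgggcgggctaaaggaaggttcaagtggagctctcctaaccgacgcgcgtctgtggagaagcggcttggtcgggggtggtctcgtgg
SCD (chr10:100346983-100347282, plus strand): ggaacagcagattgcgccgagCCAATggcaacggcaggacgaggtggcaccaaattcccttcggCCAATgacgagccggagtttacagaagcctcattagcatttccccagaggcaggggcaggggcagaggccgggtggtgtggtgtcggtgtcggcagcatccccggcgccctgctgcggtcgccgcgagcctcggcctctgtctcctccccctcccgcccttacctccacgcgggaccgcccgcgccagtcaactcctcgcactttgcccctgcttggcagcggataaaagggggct
CDK1 has a second RefSeq window, not shown. The window shown was chosen by its number of CCAAT matches, the larger number or, if equal, the first by position. Its CCAAT count therefore supports nothing. The CDK1 window shown held 2 CCAAT and 3 TTTGAA matches, the TOP2A window 4 and 2, and the SCD window 2 and 0. Among the 35116 RefSeq promoters, 34.6% held CCAAT and 15.2% held TTTGAA. Of 20 promoters of 12 mitotic kinase and cyclin genes 70% held CCAAT and 40% TTTGAA, and of 25 promoters of 23 spindle genes 68% and 76%. CCAAT was as common in the sterol synthesis list, which lay low: 76% of its 25 promoters held it and 8% held TTTGAA. Of 47 fatty acid and lipid synthesis promoters 42.6% held CCAAT, nearer the share of all promoters, and 12.8% held TTTGAA. A match is a run of letters and not a measured binding site.

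Genes of fatty acid and lipid synthesis were tilted downward. Of 31 compared members 2 were lower and 1 higher, 24 lay below 0 and the median was −0.32. Besides SCD, ELOVL7, a fatty acid elongase gene, was lower (2.99 FPKM with TTC22 siRNAs and 8.38 FPKM with scramble). FASN, the synthase itself, had 66.3 FPKM with TTC22 siRNAs and 125 FPKM with scramble, AGPAT2, which makes phosphatidic acid, 18.6 FPKM with TTC22 siRNAs and 37.2 FPKM with scramble, and the desaturase gene FADS1 2.76 FPKM with TTC22 siRNAs and 5.64 FPKM with scramble, each short of the rule, although AGPAT2 passed it at the same nuclear sum. HSD17B12, which works in fatty acid elongation, was higher (9.88 FPKM with TTC22 siRNAs and 4.38 FPKM with scramble), but not at the same nuclear sum. The transcription factor gene SREBF1 stood at 26.99 FPKM with TTC22 siRNAs and 30.4 FPKM with scramble. Of 26 sterol synthesis genes none passed the rule, although 20 lay below 0 (median −0.13).

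Lysosome genes lay low as well, with 29 of 37 below 0, a median of −0.25, 2 lower and 1 higher. CREG1 and PLBD2 were given above. Beside the plasmid experiment, given below, CREG1 was low with TTC22 siRNAs alone, whereas PLBD2 was high in scramble alone. The protease cathepsin D gene, CTSD, had 28.3 FPKM with TTC22 siRNAs and 57.3 FPKM with scramble, the fucosidase gene FUCA1 10.4 FPKM with TTC22 siRNAs and 20.9 FPKM with scramble, and the sphingolipid activator gene PSAP 190.3 FPKM with TTC22 siRNAs and 303 FPKM with scramble. CTSD and FUCA1 passed the rule, downward, once both libraries had the same nuclear sum.

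Keratins form the intermediate filaments of epithelia, with KRT5 and KRT14 in basal layers and KRT8, KRT18 and KRT19 in simple epithelia such as the colon. Of 24 basal and squamous genes 13 were compared, 8 were higher and 0 lower, and the median was 2.02. KRT14 had 22.7 FPKM with TTC22 siRNAs and 0.111 FPKM with scramble, its partner KRT5 15.6 FPKM with TTC22 siRNAs and 0.00767 FPKM with scramble, and KRT17 11.01 FPKM with TTC22 siRNAs and 0.0303 FPKM with scramble. KRT6A, which has near-identical copies, had 14.9 FPKM with TTC22 siRNAs and 0.334 FPKM with scramble, while its copy KRT6B was at 0.0888 FPKM with TTC22 siRNAs and 0.131 FPKM with scramble. KRT5, KRT6A, KRT14, KRT17 and LGALS7 were under 1 FPKM in scramble and passed the level filter through the TTC22 siRNA library alone, so they had to differ, and the count and median support nothing. In bulk RNA, more cells of a type and more transcript per cell cannot be told apart. Other members stayed short of the rule: KRT15 had 21.9 FPKM with TTC22 siRNAs and 14.3 FPKM with scramble, KRT16 1.11 FPKM with TTC22 siRNAs and 1.37 FPKM with scramble and PERP, a desmosomal protein gene, 80.1 FPKM with TTC22 siRNAs and 74.5 FPKM with scramble. TP63, the master factor of basal epithelium, was at 0.124 FPKM with TTC22 siRNAs and listed at 0 with scramble, and the cornified genes IVL, SPRR1A and SPRR3 were listed at 0 in both.

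Of 11 compared simple keratin and colon lineage genes 1 was higher, KRT7 (4.37 FPKM with TTC22 siRNAs and 0.725 FPKM with scramble), with a median of −0.11 and a mean of 0.00. KRT18 had 271 FPKM with TTC22 siRNAs and 292 FPKM with scramble and KRT19 702 FPKM with TTC22 siRNAs and 836 FPKM with scramble. CDX2, the intestinal master factor, had 1.28 FPKM with TTC22 siRNAs and 2.797 FPKM with scramble. Of 18 junction genes only F11R passed (median −0.11), and the desmosomal cadherin gene DSC2 was the furthest down, at 2.45 FPKM with TTC22 siRNAs and 5.16 FPKM with scramble. Of 18 laminin-332, hemidesmosome and integrin genes only the hemidesmosome collagen COL17A1 was higher (3.33 FPKM with TTC22 siRNAs and 0.570 FPKM with scramble), with a median of 0.02. The laminin genes LAMA3 (3.02 FPKM with TTC22 siRNAs and 1.54 FPKM with scramble) and LAMB3 (149 FPKM with TTC22 siRNAs and 116 FPKM with scramble) stayed short of the rule. Of 7 compared EMT regulators none passed (median −0.12), and KLF4 had the largest difference, at 31.03 FPKM with TTC22 siRNAs and 19.7 FPKM with scramble.

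Matrix genes that respond to YAP and TGF-beta numbered 22, of which 6 were higher and 0 lower, with a median of 0.20, where 2.23% of all compared genes were higher and 2.02% lower. TGFBI, a matrix adhesion protein gene, had 3.04 FPKM with TTC22 siRNAs and 0.0419 FPKM with scramble, so that it passed the level filter through the TTC22 siRNA library alone, and thrombospondin 1, THBS1, 5.24 FPKM with TTC22 siRNAs and 1.04 FPKM with scramble. The collagenase gene MMP1 had 5.14 FPKM with TTC22 siRNAs and 1.38 FPKM with scramble. The matricellular genes CTGF (6.79 FPKM with TTC22 siRNAs and 2.74 FPKM with scramble) and CYR61 (45.8 FPKM with TTC22 siRNAs and 21.5 FPKM with scramble) and the angiomotin relative AMOTL1 (4.896 FPKM with TTC22 siRNAs and 1.88 FPKM with scramble) passed only just, and all 3 missed the rule when both libraries were scaled to the same nuclear sum. Below 0 lay the receptor genes TGFBR2, with 5.12 FPKM with TTC22 siRNAs and 10.9 FPKM with scramble, and TGFBR1, with 4.497 FPKM with TTC22 siRNAs and 5.32 FPKM with scramble.

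Genes of the antiviral response can be set off by foreign RNA, and most of them lay lower with TTC22 siRNAs than with scramble. Of 18 compared interferon-stimulated genes 1 was higher and 2 lower, 14 lay below 0 and the median was −0.39. IFI6, which guards cells against apoptosis and viruses, had 7.54 FPKM with TTC22 siRNAs and 20.1 FPKM with scramble, and IFITM1, a membrane protein that blocks virus entry, 4.45 FPKM with TTC22 siRNAs and 12.3 FPKM with scramble. IFIT5, an RNA-binding member, was the higher one, at 2.09 FPKM with TTC22 siRNAs and 0.07999 FPKM with scramble. ISG15, a ubiquitin-like protein gene, had 193 FPKM with TTC22 siRNAs and 195 FPKM with scramble. Of 11 RNA sensing genes none passed (median −0.09): the sensor gene IFIH1 had 4.23 FPKM with TTC22 siRNAs and 6.59 FPKM with scramble and its adapter MAVS 4.88 FPKM with TTC22 siRNAs and 2.403 FPKM with scramble.

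All 14 compared genes of MHC class I presentation lay below 0, with none past the rule and a median of −0.30. HLA-B had 54.8 FPKM with TTC22 siRNAs and 66.8 FPKM with scramble; HLA genes are polymorphic and alike, so their reads may be misassigned. TAPBP, which loads peptides, had 4.83 FPKM with TTC22 siRNAs and 8.37 FPKM with scramble, and the immunoproteasome gene PSMB9 1.74 FPKM with TTC22 siRNAs and 3.21 FPKM with scramble. Of 16 NF-kB and chemokine genes none passed, and 14 lay below 0 with a median of −0.23. CXCL1, a neutrophil chemokine gene, had 3.01 FPKM with TTC22 siRNAs and 4.91 FPKM with scramble, and the inhibitor gene NFKBIA 24.02 FPKM with TTC22 siRNAs and 31.5 FPKM with scramble. Of 19 JAK-STAT and SOCS genes 1 was higher and 2 lower, with a median of −0.02 and a mean of −0.23. The kinase gene PIM1 had 22.2 FPKM with TTC22 siRNAs and 8.47 FPKM with scramble, the phosphatase gene PTPN11 10.9 FPKM with TTC22 siRNAs and 27.99 FPKM with scramble, and the inhibitor SOCS3 (2 exons) 1.296 FPKM with TTC22 siRNAs and 31.6 FPKM with scramble.

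The silencing machinery itself showed 1 difference past the rule. Of its 15 genes AGO1, an Argonaute gene, was lower (1.45 FPKM with TTC22 siRNAs and 4.97 FPKM with scramble), and the list median was −0.11. AGO2, the Argonaute that cuts its target, had 20.2 FPKM with TTC22 siRNAs and 20.8 FPKM with scramble, DICER1, which cuts precursors, 3.52 FPKM with TTC22 siRNAs and 2.83 FPKM with scramble, and the scaffold gene TNRC6A 1.09 FPKM with TTC22 siRNAs and 1.86 FPKM with scramble.

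Members past the rule in the growth signalling lists overlapped, CCND1 being counted in 3 of them. Of 14 EGF receptor and ligand genes EREG alone passed (median −0.03). AREG, the neighbouring ligand gene, had 275 FPKM with TTC22 siRNAs and 380.1 FPKM with scramble, and EGFR itself 15.8 FPKM with TTC22 siRNAs and 10.3 FPKM with scramble. Of 13 cyclin D, CDK4/6 and RB genes CCND1 alone passed (median −0.02), with CDK4 at 18.3 FPKM with TTC22 siRNAs and 21.5 FPKM with scramble and CDK6 at 2.75 FPKM with TTC22 siRNAs and 1.85 FPKM with scramble. Of 14 Wnt target genes CCND1 was again the only one, although 11 lay below 0 (median −0.30). DKK1, a Wnt inhibitor, had 58.1 FPKM with TTC22 siRNAs and 74.6 FPKM with scramble, and SOX4 10.1 FPKM with TTC22 siRNAs and 13.5 FPKM with scramble.

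ERK feedback and output genes gave 2 higher and 2 lower among 22 (median −0.07, mean 0.09). The higher ones, IER3 (399 FPKM with TTC22 siRNAs and 4.37 FPKM with scramble) and the inhibitor SPRY4 (14.3 FPKM with TTC22 siRNAs and 3.62 FPKM with scramble), have under 4 exons. Beside the plasmid experiment, given below, IER3 was low in scramble alone. Lower were CCND1 and ETV5, an ERK-driven transcription factor gene (4.93 FPKM with TTC22 siRNAs and 11.2 FPKM with scramble), while the phosphatase gene DUSP1 had 19.8 FPKM with TTC22 siRNAs and 34.7 FPKM with scramble. Of 26 AP-1 and immediate early genes 2 were higher and 2 lower (median 0.18). These were IER3, the mRNA decay factor ZFP36L2 (7.26 FPKM with TTC22 siRNAs and 0.191 FPKM with scramble), IER2 (1.04 FPKM with TTC22 siRNAs and 68.6 FPKM with scramble) and the helix-loop-helix inhibitor ID2 (16.6 FPKM with TTC22 siRNAs and 51.7 FPKM with scramble), of which only ID2 has 4 or more exons. NR4A1, an immediate early nuclear receptor gene, had 22.7 FPKM with TTC22 siRNAs and 11.95 FPKM with scramble.

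Of 21 p53 targets none was higher and 2 were lower (median −0.02, mean −0.19): the antiproliferative gene BTG2 (0.279 FPKM with TTC22 siRNAs and 11.7 FPKM with scramble) and the stress cytokine GDF15 (34.1 FPKM with TTC22 siRNAs and 92.5 FPKM with scramble), both with 3 exons. SESN2, a stress sensor, had 28.9 FPKM with TTC22 siRNAs and 16.5 FPKM with scramble. None of 22 genes of apoptosis passed (median −0.05), with CASP6 furthest out at 3.23 FPKM with TTC22 siRNAs and 5.03 FPKM with scramble.

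Most ribosomal genes lay slightly above 0, with few past the rule. Scaling both libraries to the same nuclear sum moved the median of all genes by −0.06, about the size of the ribosomal protein list medians. That scaling was not applied to lists. Of 48 large-subunit ribosomal protein genes RPL29 alone was lower (281 FPKM with TTC22 siRNAs and 639 FPKM with scramble), with 33 above 0 and a median of 0.07, and RPL15 had 238 FPKM with TTC22 siRNAs and 142 FPKM with scramble. Of 33 small-subunit genes none passed and 24 lay above 0 (median 0.06), with RPS15 at 93.7 FPKM with TTC22 siRNAs and 174 FPKM with scramble. Single members are uncertain, since processed pseudogenes of ribosomal protein genes are common. Of 44 translation factors the 3-exon inhibitor gene EIF4EBP2 was lower (0.341 FPKM with TTC22 siRNAs and 7.02 FPKM with scramble), the median was 0.04, and the cap-binding EIF4E had 4.13 FPKM with TTC22 siRNAs and 1.95 FPKM with scramble. Of 49 ribosome biogenesis genes 2 were lower, DDX56 and NOP10 of the H/ACA particle (31.2 FPKM with TTC22 siRNAs and 138 FPKM with scramble), while 34 lay above 0 and the median was 0.12. Of 23 aminoacyl-tRNA synthetase genes QARS, for glutamine, was lower (18.4 FPKM with TTC22 siRNAs and 44.2 FPKM with scramble; median 0.04).

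Of 28 ATF4 target genes 2 were higher and 1 lower (median 0.11). The higher ones were transporters, SLC7A1 for arginine and lysine (18.98 FPKM with TTC22 siRNAs and 5.93 FPKM with scramble) and SLC1A5 for glutamine (66.1 FPKM with TTC22 siRNAs and 29.5 FPKM with scramble). SLC7A5, a transporter of large neutral amino acids, was the lower one (39.6 FPKM with TTC22 siRNAs and 101 FPKM with scramble), and DDIT3, a stress factor, had 49.7 FPKM with TTC22 siRNAs and 27.6 FPKM with scramble. Of 39 endoplasmic reticulum chaperone and degradation genes 1 was higher and 2 lower (median 0.08). HERPUD1, of the degradation machinery, was higher (31.5 FPKM with TTC22 siRNAs and 15.1 FPKM with scramble) but missed the rule at the same nuclear sum. The translocon channel gene SEC61A1 (24.4 FPKM with TTC22 siRNAs and 59.4 FPKM with scramble) and the retrotranslocation gene DERL1 (7.55 FPKM with TTC22 siRNAs and 17.01 FPKM with scramble) were lower, while the chaperone HSPA5 had 661 FPKM with TTC22 siRNAs and 385 FPKM with scramble.

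Vesicle transport gave 2 higher and 2 lower of 39 (median 0.05). In the TMED family of p24 cargo receptors TMED4 was higher (30.4 FPKM with TTC22 siRNAs and 12.8 FPKM with scramble), TMED10 and TMED1 lower (5.93 FPKM with TTC22 siRNAs and 15.3 FPKM with scramble for the last), and TMED7 had 23.1 FPKM with TTC22 siRNAs and 12.2 FPKM with scramble. SURF4, another cargo receptor, was higher (64.2 FPKM with TTC22 siRNAs and 25.1 FPKM with scramble). Of 32 glycosylation genes 2 were higher and 1 lower, with a median of 0.00 and a mean of 0.21: POMGNT2, the 2-exon DPM3 (14.5 FPKM with TTC22 siRNAs and 0.5105 FPKM with scramble), and GALNT2, which starts O-linked sugars (4.21 FPKM with TTC22 siRNAs and 10.8 FPKM with scramble). Of 37 cytosolic and mitochondrial chaperones 30 lay above 0, with a median of 0.18, but only HSPB1 passed, downward. PTGES3, an Hsp90 cochaperone, had 123 FPKM with TTC22 siRNAs and 75.8 FPKM with scramble, and HSPH1 18.2 FPKM with TTC22 siRNAs and 11.7 FPKM with scramble. Of 40 proteasome genes 2 were higher and 1 lower (median 0.04): the assembly chaperone PSMD10 (18.2 FPKM with TTC22 siRNAs and 5.61 FPKM with scramble), the core subunit PSMA6 (15.5 FPKM with TTC22 siRNAs and 6.84 FPKM with scramble) and the regulatory subunit PSMD12 (7.301 FPKM with TTC22 siRNAs and 17.8 FPKM with scramble).

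Of 34 glycolysis and hypoxia genes NDRG1 alone was higher (median 0.04), and it missed the rule at the same nuclear sum. HK2, a hexokinase, had 119.6 FPKM with TTC22 siRNAs and 59.99 FPKM with scramble, and EGLN3, an oxygen sensor, 2.22 FPKM with TTC22 siRNAs and 4.78 FPKM with scramble. Of 38 subunits of respiratory complex I 2 were higher, NDUFB6 (14.3 FPKM with TTC22 siRNAs and 4.98 FPKM with scramble) and NDUFC2 (15.2 FPKM with TTC22 siRNAs and 6.101 FPKM with scramble), with a median of 0.08, and of 38 subunits of complexes II to V none (median 0.07), with COX8A at 189 FPKM with TTC22 siRNAs and 97.3 FPKM with scramble. Of 21 factors of mitochondrial gene expression TRMT10C, a subunit of mitochondrial RNase P with 2 exons, was lower (0.0307 FPKM with TTC22 siRNAs and 5.16 FPKM with scramble; median 0.01). TFAM, which packages mitochondrial DNA, had 2.23 FPKM with TTC22 siRNAs and 3.496 FPKM with scramble. None of 26 NRF2 target genes passed (median −0.07, mean 0.07), and TXNRD1, thioredoxin reductase, had 78.1 FPKM with TTC22 siRNAs and 48.7 FPKM with scramble.

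Of 23 tubulin genes and cofactors TUBB4B alone passed (median 0.00); tubulin genes are alike, and TUBB2A had 12.9 FPKM with TTC22 siRNAs and 7.87 FPKM with scramble. Of 41 actin cytoskeleton genes TMSB10 was higher and calponin 2, CNN2, lower (28.98 FPKM with TTC22 siRNAs and 70.8 FPKM with scramble), with a median of 0.00 and ACTB, beta-actin, at 417 FPKM with TTC22 siRNAs and 748 FPKM with scramble. Of 10 S100 genes the squamous member S100A2 alone passed (16.2 FPKM with TTC22 siRNAs and 2.101 FPKM with scramble; median −0.01, mean 0.13). Of 7 genes of the 14-3-3 adapter proteins SFN (262 FPKM with TTC22 siRNAs and 8.66 FPKM with scramble) and YWHAG (84.1 FPKM with TTC22 siRNAs and 0.284 FPKM with scramble) were higher, both with under 4 exons. YWHAQ had 103 FPKM with TTC22 siRNAs and 57.9 FPKM with scramble and YWHAE 78.9 FPKM with TTC22 siRNAs and 132 FPKM with scramble. The list median was 0.49, and 0.11 over the 4 members with 4 or more exons.

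Of 50 spliceosome, SR and hnRNP genes none passed and 37 lay above 0 (median 0.15), with the SR genes SRSF3 at 3.33 FPKM with TTC22 siRNAs and 7.31 FPKM with scramble and SRSF6 at 17.2 FPKM with TTC22 siRNAs and 8.72 FPKM with scramble. Of 10 snoRNA host genes none passed and 9 lay above 0 (median 0.18), with TAF1D at 14.2 FPKM with TTC22 siRNAs and 7.72 FPKM with scramble. None passed among 16 m6A enzymes and readers (median 0.07) or among 19 TTC family genes (median 0.02), where TTC37 had 5.62 FPKM with TTC22 siRNAs and 3.03 FPKM with scramble.

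**Figure D3:**
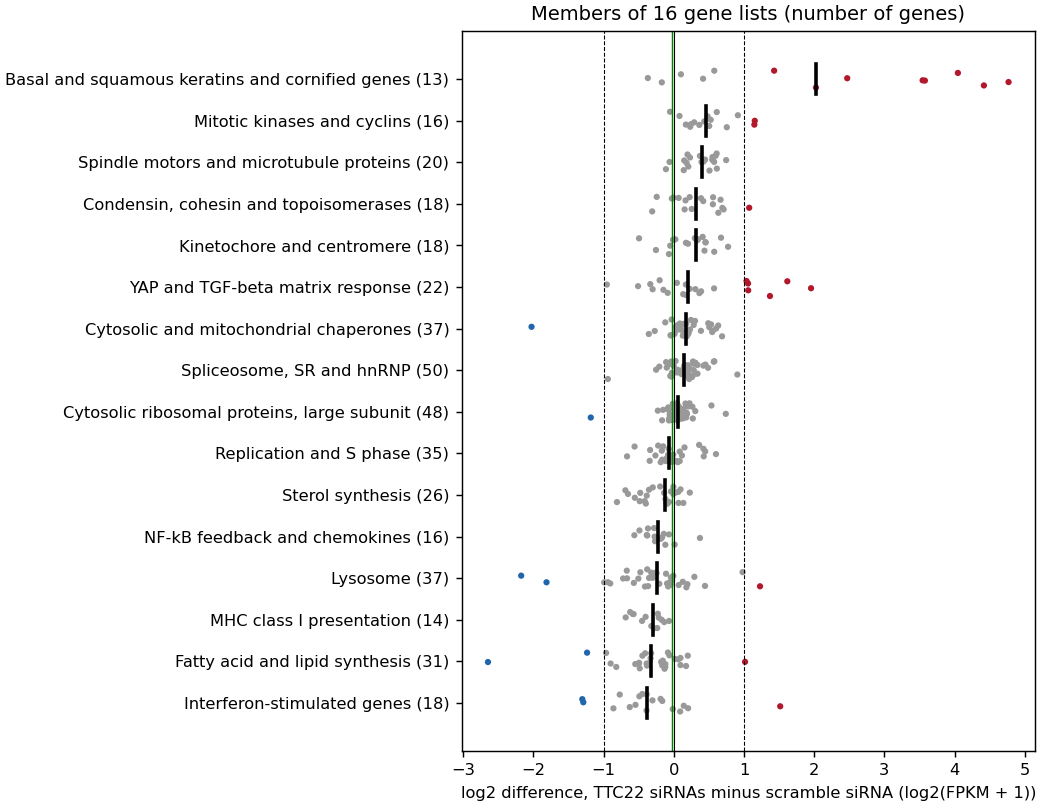
Differences of the members of 16 gene lists (horizontal axis, log2(FPKM + 1), TTC22 siRNAs minus scramble siRNA), one point a gene, with the number compared in brackets. Black bars are list medians, from 2.02 for basal and squamous genes at the top to −0.39 for interferon-stimulated genes at the bottom; red and blue points are past 2-fold, and the green line is the median of all genes, −0.02.

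Which of the libraries departed was described by setting the 412 genes beside the plasmid experiment, whose table was normalized separately. The TTC22 siRNA library stood at least 2-fold above all 3 other libraries for 72 of the higher genes (0.743% of all compared) and below all 3 for 67 of the lower genes (0.691%). The scramble library stood apart from the other 3 in the same manner for 47 further higher and 30 further lower genes. A gene for which both siRNA libraries stood apart, such as TOMM6, was counted with the TTC22 siRNA library only. For the remaining 97 and 99 genes neither siRNA library stood apart. Of the 40 extreme genes with 4 or more exons the numbers were 14, 8 and 18.

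In the first class, WASF2 had 74.9 FPKM with TTC22 siRNAs, 20.5 FPKM with scramble, 11.2 FPKM with the TTC22V1 plasmid and 10.8 FPKM with empty vector. SCD had 365 FPKM with the TTC22V1 plasmid and 393 FPKM with empty vector, and HSPB1 387 FPKM with the TTC22V1 plasmid and 477 FPKM with empty vector, so that the TTC22 siRNA library was the lowest of 4 for both. CREG1 had 18.3 FPKM with the TTC22V1 plasmid and 15.3 FPKM with empty vector. Of the 72 higher genes 25 were under 1 FPKM in each of the other libraries; these passed the level filter through the TTC22 siRNA library alone, and a lower gene could not have shown the converse. Named after their values were seen, the 25 include CYP1A1 (4.105 FPKM with TTC22 siRNAs and 0.09605 FPKM with scramble) and CYP1B1 (2.16 FPKM with TTC22 siRNAs and 0.0976 FPKM with scramble), oxidases induced through the aryl hydrocarbon receptor. Squamous genes were among them as well, LGALS7 (3.25 FPKM with TTC22 siRNAs and 0.04502 FPKM with scramble), which has a near-identical copy, SERPINB4 (2.47 FPKM with TTC22 siRNAs and 0.0436 FPKM with scramble), likewise with a close relative, and ANXA8 (2.51 FPKM with TTC22 siRNAs and 0.0176 FPKM with scramble).

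In the second class the mitotic genes CDK1, TTK and TOP2A were lowest in scramble. CDK1 had 19.3 FPKM with the TTC22V1 plasmid and 15.8 FPKM with empty vector, TTK 13.3 FPKM with the TTC22V1 plasmid and 11.4 FPKM with empty vector and TOP2A 22.98 FPKM with the TTC22V1 plasmid and 23.1 FPKM with empty vector. Both siRNA libraries therefore lay below both plasmid libraries for these genes, and TUBB4B, with 235 FPKM with the TTC22V1 plasmid and 338 FPKM with empty vector, showed the same order. SLC7A1 (16.97 FPKM with the TTC22V1 plasmid and 19.2 FPKM with empty vector) and CCDC6 (12.4 FPKM with the TTC22V1 plasmid and 12.2 FPKM with empty vector) were low in scramble alone. CDA, cytidine deaminase, was high in scramble alone: it had 14.4 FPKM with TTC22 siRNAs, 45.7 FPKM with scramble, 18.5 FPKM with the TTC22V1 plasmid and 18.2 FPKM with empty vector. So was IER2, with 0.665 FPKM with the TTC22V1 plasmid and 1.06 FPKM with empty vector. BTG2 had 0.208 FPKM with the TTC22V1 plasmid and 0.441 FPKM with empty vector. PTPN11 had 12.3 FPKM with the TTC22V1 plasmid and 11.2 FPKM with empty vector. PLBD2 had 3.25 FPKM with the TTC22V1 plasmid and 3.91 FPKM with empty vector. All of these were high in scramble alone.

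The third class held the basal keratins, EREG, TMED10 and CCND1. KRT14 had 0.0663 FPKM with the TTC22V1 plasmid and 41.7 FPKM with empty vector, so the TTC22 siRNA and empty vector libraries were the high ones. EREG had 14.9 FPKM with the TTC22V1 plasmid and 85.4 FPKM with empty vector, so the TTC22 siRNA and TTC22V1 plasmid libraries were the low ones. CCND1, with 15.4 FPKM with the TTC22V1 plasmid and 117 FPKM with empty vector, and TMED10, with 8.24 FPKM with the TTC22V1 plasmid and 48.6 FPKM with empty vector, showed the same order as EREG.

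**Figure D4:**
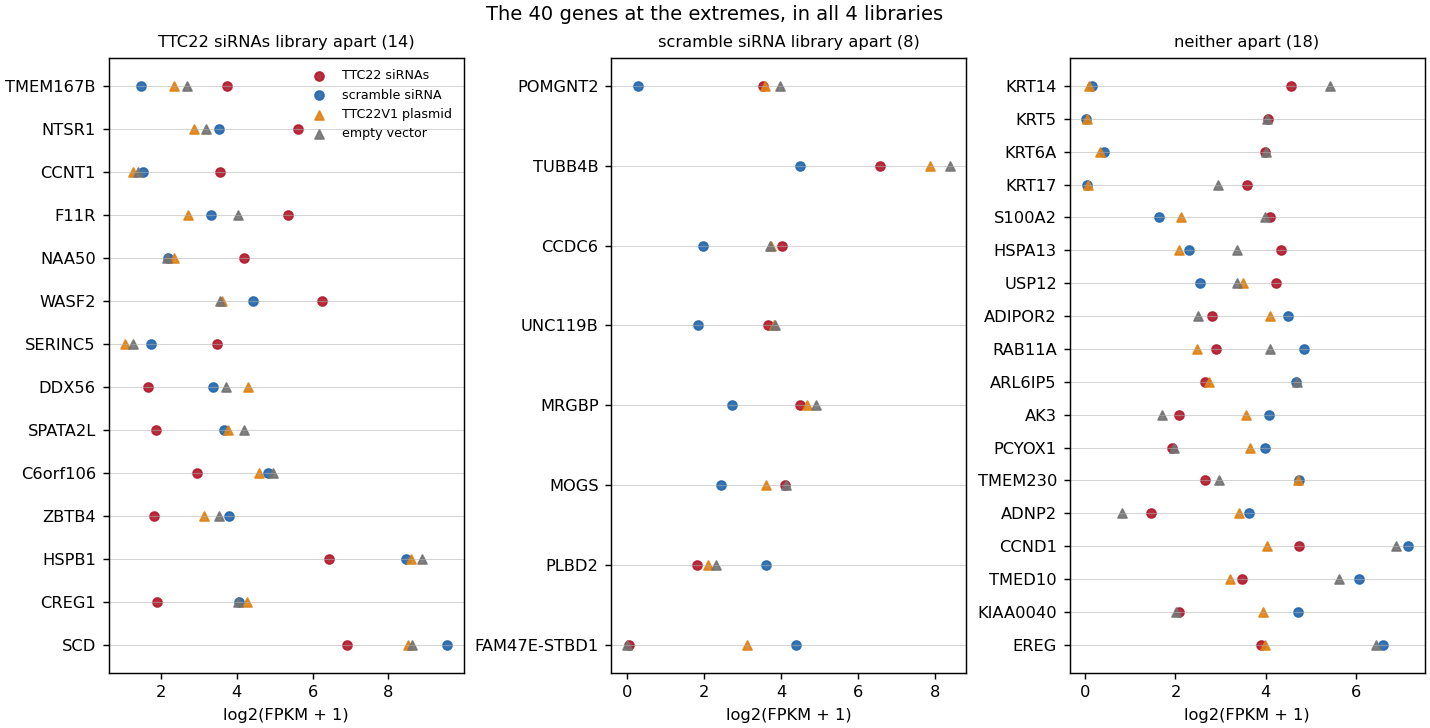
Levels (log2(FPKM + 1)) of the 40 extreme genes in all 4 libraries. Circles are TTC22 siRNAs (red) and scramble siRNA (blue), triangles the TTC22V1 plasmid (orange) and empty vector (grey), whose table was normalized separately; 14 genes have the TTC22 siRNA library apart, 8 the scramble library and 18 neither.

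Genes listed at 0 were kept apart, since a 0 can be a failed estimate. Of the 45 measured nuclear ones 30 were at 0 in scramble and 15 with TTC22 siRNAs, and 41 had under 4 exons. Highest among those at 0 in scramble were ADIRF (169.6 FPKM with TTC22 siRNAs), the AP-1 gene JUNB (150.7 FPKM), the splicing factor gene SF3B5 (98.998 FPKM), the TFIID subunit gene TAF7 (42.7 FPKM) and IER5L (35.9 FPKM). TMEM158, IER5, KRTAP2-1 and SDHAF1 also stood there, with 31.2 to 9.30 FPKM. Those at 0 with TTC22 siRNAs were lower in level, from 9.19 FPKM in scramble for C17orf96 through RRS1, INTS5, KLHL9, RBM15B, RNU1-3, the claudin gene CLDN3 (4.60 FPKM), C6orf226 and RNU1-2 to 3.71 FPKM for ZNHIT2. RNU1-2 and RNU1-3 are copies of the U1 RNA gene. JUNB stood at 59.8 FPKM with the TTC22V1 plasmid and 115 FPKM with empty vector, so the 0 in scramble stood alone among the 4 libraries, whereas ADIRF and SF3B5 were at 0 in empty vector too.

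Mitochondrially encoded genes made up 8.64% of the summed FPKM with TTC22 siRNAs and 1.11% with scramble. They come from a circular genome with no introns, and their transcripts overlap and share copies in the nuclear genome, so their assignment is uncertain. MT-RNR2, the large mitochondrial ribosomal RNA, had 12882 FPKM with TTC22 siRNAs and 39.5 FPKM with scramble, while the plasmid pair had 0.126 FPKM with the TTC22V1 plasmid and 0.385 FPKM with empty vector. MT-CO1, subunit 1 of cytochrome oxidase, had 4429 FPKM with TTC22 siRNAs and was listed at 0 with scramble, while the plasmid libraries had 2962 FPKM with TTC22V1 and 4102 FPKM with empty vector. MT-ND6 (56.5 FPKM) and MT-CO2 (13.5 FPKM) were likewise listed at 0 in scramble. The other way round, the transfer RNA gene MT-TF was listed at 0 with TTC22 siRNAs and at 1530.0 FPKM with scramble. MT-ND4 had 14.3 FPKM with TTC22 siRNAs and 41.7 FPKM with scramble, and the transfer RNA gene MT-TP 384 FPKM with TTC22 siRNAs and 397 FPKM with scramble. The genes thus went in both directions, and MT-ND2, a subunit gene of complex I, was listed at 0 in both libraries. Without these genes the summed FPKM was 187955 with TTC22 siRNAs and 179093 with scramble.

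**Figure D5:**
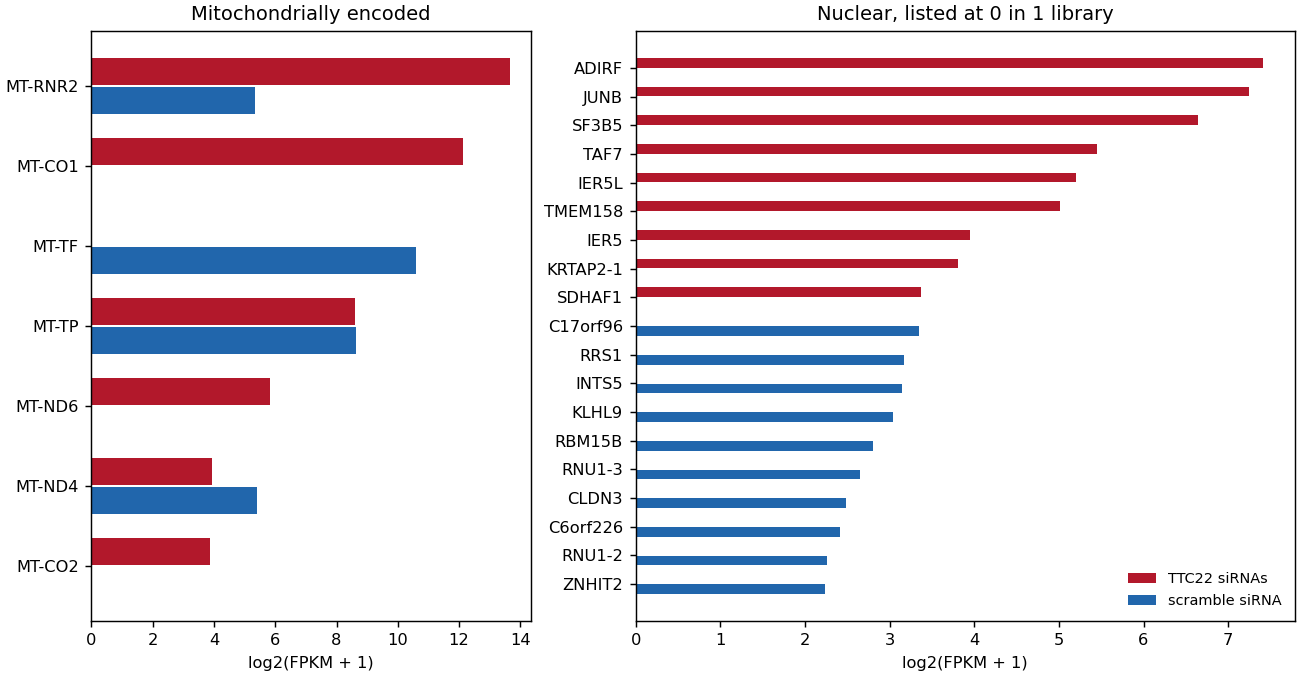
Levels (bars from 0, log2(FPKM + 1)) of the 7 measured mitochondrially encoded genes (left) and of the named nuclear genes listed at 0 in 1 library (right). Red bars are the TTC22 siRNA library and blue bars the scramble library; a missing bar is a value listed at 0, as for MT-CO1 in scramble and MT-TF with TTC22 siRNAs.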

How the data were processed

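Poly(A) RNA of HCT116 cells was sequenced on an Illumina HiSeq X-ten as paired-end TruSeq libraries, per the labels' protocols. The authors deposited FPKM values in 2 tables, 1 for each pair of libraries; the unit is inferred from low values, which step with transcript length. STAR and hg38 are named in the submitters' processing notes; for the quantifier, annotation and strand setting, nothing is given in the sources used here. Fragment counts are unknown, so no interval on counts could be given.

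Genes were compared as log2(FPKM + 1), with a pseudocount of 1, a pair mean of at least 1 FPKM and a size of 2-fold, using Python 3.11.15, pandas 2.3.3 and numpy 2.4.6, with matplotlib 3.10.9 for plots. The calculation was tested on simulated data. With 1 library a group no test was possible. Exon numbers came from GENCODE 44, which held 91.6% of the table's genes and 99.5% of the measured ones, and promoters came from RefSeq. Of 1520 entries in 54 gene lists, 1510 had a row. Named genes came from TTC22, the 20 highest and 20 lowest among genes with 4 or more exons and a pair mean from 5 FPKM, the 6 largest differences in every list, the 15 most abundant genes, the top 10 listed at 0 each way and the measured mitochondrial genes. Other genes were named after their values were seen. A few genes that met the rule are not reported here. The genes and lists were chosen with earlier results of these data known. Alternatives varied the pseudocount, level filter, fold, scaling, exon number and treatment of zeros.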

Additional observations from a re-analysis of the deposited data

How the results depend on the processing

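The count of 216 higher and 196 lower genes was within 1.5 times of itself without a level filter, after centring on the median, at the same nuclear sum, with 4 or more exons, with zeros and mitochondrial genes included, and, chosen after seeing the data, without genes for which scramble stood apart. With a pseudocount of 0.1 there were 317 higher and 319 lower genes. A mean of at least 5 FPKM left 110 and 103, a size of 1.5-fold gave 529 and 518, and 4-fold gave 50 and 41. Requiring the rule against all 3 other libraries, likewise chosen afterwards, left 72 and 67. The same nuclear sum moved the median of all genes by −0.06, gave 188 higher and 217 lower genes, and put TTC22 at −0.69; 6 named genes lost the call and 3 gained it.

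Of 53 lists with a median, 16 changed sign under at least 1 alternative, 13 of them with a median under 0.1 in size. The same nuclear sum was not among the alternatives applied to lists, so further small medians may change sign under it. The other 3 follow. The mean of members was 0.034 for the anaphase-promoting complex and 0.00093 for simple keratins and colon lineage, and the median of EMT regulators was 0.021 over members of at least 5 FPKM. The causes were not tested. No paired analysis was possible because each group holds 1 library.

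Single libraries and unknown fragment numbers limit every value: library preparation and treatment cannot be told apart, and the labels name no separate cultures.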
